A study of Rattus with 9 samples.

Results

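The genes described here carry out bicarbonate and fluid secretion in the bile duct epithelium. They are 8 genes chosen by symbol, Cftr, Slc4a2, Slc4a4, Sctr, Ano1, Aqp1, Car2 and Slc12a2, out of 23999 genes in the matrices, and all 8 were found. The data are single-cell RNA sequencing of rat bile duct, held as unique molecular identifier (UMI) counts from 20 libraries of 9 samples. The sham group had 3 samples of 1 library each. The LT group, labelled ctrl, had rat liver transplantation (LT) with ischemic injury and 1 sample each on day 1, on day 3 and on day 7 post-LT, of 3 libraries each. The raised-flow group, labelled treat, had the same transplantation plus ligation of the splenic and gastroduodenal arteries, which directs more arterial blood to the graft, and was sampled on the same days with 3, 2 and 3 libraries. The study's methods name male and female Sprague-Dawley rats aged 6 to 8 weeks, without tying strain, sex or age to these samples. No label ties a library to a rat, so the libraries of 1 sample were summed and the sample was the replicate. The 3 samples of each transplanted group are 3 different days, so the spread within a group holds day as well as animal.

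Bile duct epithelial cells (BEC) modify bile as it passes. Secretin binds its receptor, encoded by Sctr, and raises cAMP. This opens the chloride channel encoded by Cftr, and chloride in the lumen is then exchanged for bicarbonate by the anion exchanger encoded by Slc4a2. The calcium-gated chloride channel Ano1 offers a second path for chloride. Slc4a4 encodes a sodium bicarbonate cotransporter, Slc12a2 the NKCC1 cotransporter that loads chloride into the cell, Car2 the cytosolic carbonic anhydrase that makes bicarbonate from carbon dioxide, and Aqp1 a water channel. The bicarbonate layer on the duct surface is thought to protect BEC from bile acids.

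After filtering, 139585 cells were retained, and 33 of 42 clusters were named as 16 classes from marker genes. The 20843 BEC-like cells formed 4 clusters and were found in every sample, from 441 to 4400 cells. All 12 listed BEC markers were higher in BEC-like cells than in the other cells, by 12.2-fold (Sox9) to 93.8-fold (Krt7). The class was named from these same markers, so their excess is not separate evidence for the name. Cells of no named class made up 12.5% of those retained. Per sample they made up 5.74% to 7.35% in sham, 9.59% to 15.8% in LT and 9.96% to 24.2% in the raised-flow group. The libraries of 1 pair shared at most 3 barcodes. Total UMIs per sample ran from 21270647 to 290590249, and UMIs in BEC-like cells from 3068486 to 53777920. In LT day 3, 14678 barcodes passed the limits other than that on hemoglobin and 8142 passed all of them, the largest loss of the 9 samples. Levels below are in CPM, the UMI count of a gene scaled to a fixed total of UMIs in the cells of that class and sample. They come from the 3′ ends of transcripts and are compared between cells for 1 gene, not between genes.

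Cftr, Slc4a4 and Sctr had their highest mean level in BEC-like cells. Cftr stood at 48.8 ± 17.2 CPM (SD, n = 9 samples) there, 6.82-fold above the next class, goblet-like cells at 7.16 ± 7.51 (n = 3). BEC-like cells held 97.3% of all Cftr UMIs in retained cells, and between 95.4% and 98.3% in each sample. Cftr was therefore read almost only in BEC-like cells in every sample. Sctr stood at 64.1 ± 25.3 CPM in BEC-like cells and at 17.8 ± 9.50 in acinar-like cells (n = 2), and BEC-like cells held 94.2% of its UMIs. Slc4a4 stood at 64.3 ± 16.7 CPM in BEC-like cells, 18.3 ± 14.9 in tuft-like cells and 11.2 ± 4.64 in fibroblast-like cells. The sample ranges of BEC-like cells did not overlap those of the next class for Cftr and Sctr, and did overlap for Slc4a4. Fibroblast-like cells held 12.9% of Slc4a4 UMIs.

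The other 5 genes were shared with other classes. Slc4a2 was higher in tuft-like cells, at 89.7 ± 10.1 CPM, than in BEC-like cells, at 57.7 ± 14.5, although the ranges of the samples overlapped. It was read in every class, and its lowest mean was in plasma-like cells. Ano1 stood at 70.9 ± 38.0 CPM in vascular smooth muscle (VSMC)-like cells and at 38.1 ± 11.7 in BEC-like cells, which did not differ beyond their spread. BEC-like cells still held 75.5% of Ano1 UMIs, and VSMC-like cells 11.0%. Slc12a2 stood at 383 ± 189 CPM in goblet-like cells (n = 3) and 231 ± 66.2 in BEC-like cells, again within their spread, and at 86.9 ± 37.1 in VSMC-like cells, whose range lay below that of BEC-like cells. Car2 was also highest on average in goblet-like cells, with 169.9 ± 264 CPM in goblet-like cells (n = 3), 99.9 ± 41.2 in BEC-like cells and 75.5 ± 24.9 in tuft-like cells. The 3 goblet-like samples stood at 0, 35.8 and 474 CPM, and the medians of BEC-like and tuft-like cells were 104 and 73.8. These 3 classes did not differ beyond their spread for Car2. The next, B-like cells, lay below BEC-like and tuft-like cells and overlapped goblet-like cells.

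**Figure D1:**
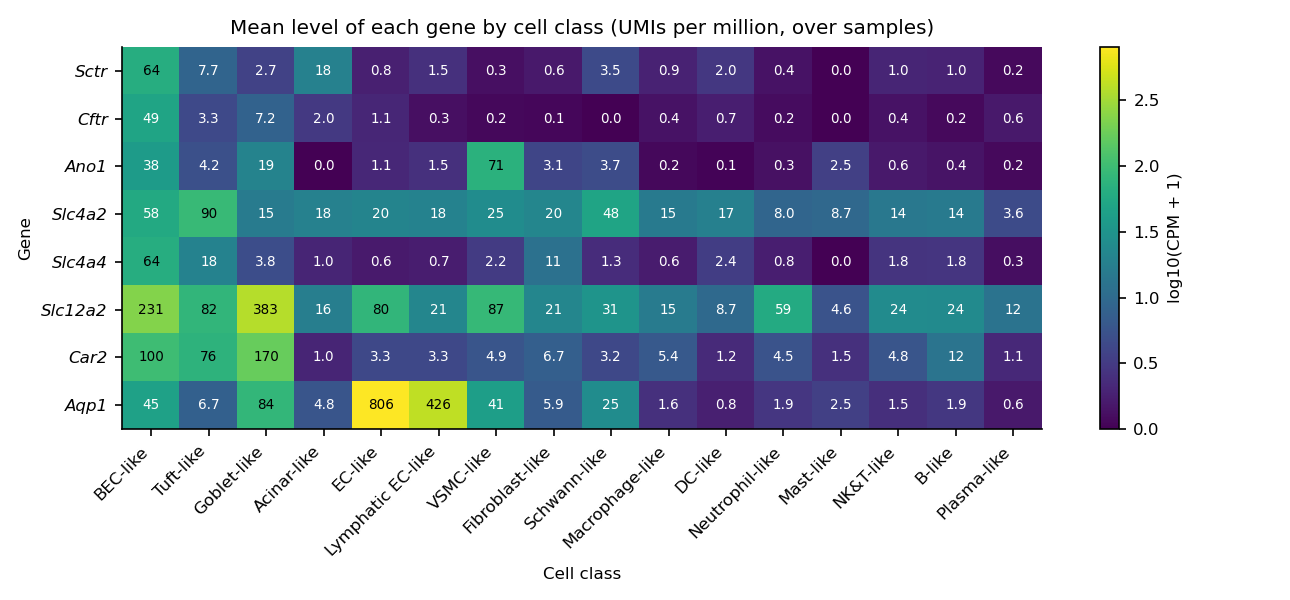
Mean CPM of each gene (rows) in each of 16 cell classes (columns), over the samples with at least 20 cells of that class; colour is log10(CPM + 1) and the printed number is the mean. Sctr, Cftr and Slc4a4 peak in the BEC-like column, and Aqp1 in the EC-like and lymphatic EC-like columns.

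Aqp1 was mainly an endothelial gene in these ducts. It stood at 806 ± 292 CPM in endothelial (EC)-like cells and 426 ± 216 in lymphatic EC-like cells. BEC-like cells ranked 4th, at 44.7 ± 27.2 CPM, and held 16.9% of its UMIs, against 60.6% in EC-like cells. Goblet-like cells at 84.1 ± 70.2 and VSMC-like cells at 41.1 ± 22.3 did not differ from BEC-like cells beyond their spread.

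Free RNA in the droplets was a small part of the UMIs in BEC-like cells. Its estimated share of the UMIs in BEC-like cells had a median of 0.964% over libraries and reached 8.22% in 1 library. As a background, the share of cells with a UMI was also taken in NK&T-like cells, which should lack Cftr and Sctr, after thinning each cell to 2000 UMIs. Median depth per sample was 3858 to 11464 UMIs in BEC-like cells and 2095 to 5340 in NK&T-like cells. In sham samples 6.76% to 8.90% of thinned BEC-like cells had a Cftr UMI, against 0% to 0.415% of NK&T-like cells; unthinned, the shares were 20.9% to 21.7% and 0% to 0.243%. For Sctr the thinned shares were 9.65% to 17.8% and 0% to 0.626%, and the unthinned shares 19.5% to 38.2% and 0.375% to 0.862%. For Slc12a2 they were 20.2% to 31.6% and 4.13% to 7.01% after thinning. Its mean level in NK&T-like cells, 24.0 CPM, was below its median of 44.4 CPM in empty droplets. Thinning left out 3729 BEC-like cells with fewer UMIs, 807 of them from sham, 1017 from LT and 1905 from the raised-flow group, and 3503 NK&T-like cells.

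The genes whose mean levels over the 16 classes were most like those of each secretion gene are given as a description, by Pearson's r of log2(CPM + 1) over classes that come from the same libraries. For Cftr they were Wnt7b, Mettl7b and Sptssb (r = 0.98, 0.98 and 0.97). Sctr was closest to Cldn8, a tight junction claudin (0.94). For Slc4a4 they were Crym, Gstm7 and Msln (0.91, 0.89 and 0.88), each also highest in BEC-like cells. Car2 was closest to RGD1561662, Pof1b and Pdx1 (0.96, 0.96 and 0.95). Aqp1 was closest to Tspan12, Lmo1 and Uaca (0.94, 0.93 and 0.92), each highest in EC-like or lymphatic EC-like cells. Ano1 was closest to Ndufa4l2, Lgalsl and Slmap (0.91, 0.89 and 0.87), Slc4a2 to Fam234b, Cpt1a and Rsph9 (0.90, 0.88 and 0.87), and Slc12a2 to Klc4, AABR07031193.1 and Mindy1 (0.88, 0.87 and 0.86).

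The main comparison asked how the secretion genes differed between the groups within BEC-like cells. Of the 8 genes, Aqp1 alone passed the test between LT and sham, at an adjusted p under 0.05 in edgeR's quasi-likelihood test over all 13226 genes tested, where 4.73% of all genes passed. None of the 8 passed between the raised-flow group and sham, where 0.295% of all genes passed, and none between the raised-flow and LT groups, where 0% passed. At an unadjusted p under 0.05 there were 5, 2 and 1 of the 8, where 23.4%, 13.9% and 8.92% of all genes were. Both transplanted groups were compared with the same 3 sham samples.

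Aqp1, the water channel, stood at 96.1, 71.9 and 59.9 CPM in sham 1, 2 and 3. It stood at 18.6, 13.2 and 25 CPM in the LT group at days 1, 3 and 7, and at 31.4, 49.3 and 37.0 CPM in the raised-flow group. The summed samples of the 3 groups did not overlap, with sham highest and LT lowest. Single libraries did overlap, from 5.06 to 42.9 CPM at LT day 7, 9.69 to 51.6 at LT day 3 and 10.3 to 62.5 at raised-flow day 7. LT day 3 had 625 BEC-like cells in library 1, 21 in library 2 and 42 in library 3. Its 9.69 and 51.6 CPM rest on 3 and 27 Aqp1 UMIs in libraries 2 and 3. The log2 fold change between LT and sham was -1.73 ± 0.27 (SE), that is 0.301 of the sham level, with an adjusted p of 0.0124. Between the raised-flow group and sham it was -0.74 ± 0.26 (adjusted p = 0.277), and between the raised-flow and LT groups 0.99 ± 0.27 (adjusted p = 0.382). The call against sham was lost without sham 2 (adjusted p = 0.0670) and without sham 3 (adjusted p = 0.0562). EC-like cells carry much Aqp1, and the amount that EC RNA would bring to BEC-like cells, estimated from EC markers, was 1.65 to 5.88 CPM. With that amount taken away, Aqp1 stood at 57.2 to 91.2 CPM in sham, 11.6 to 22.8 in LT and 26.3 to 47.1 in the raised-flow group. The estimate used EC-like cells and not lymphatic EC-like cells, and the part of EC RNA in the group differences was not tested.

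Sctr, the secretin receptor, stood at 71.0, 93.7 and 102 CPM in sham, 25.3, 56.1 and 44.3 in LT and 41.1, 61.9 and 81.0 in the raised-flow group. Every LT sample lay below every sham sample, and the raised-flow samples lay across both. Acinar-like cells are the second class for Sctr, and the 7 acinar markers in BEC-like cells summed to 188 to 567 CPM in sham, 103 to 167 in LT and 173 to 298 in the raised-flow group. Their part in the Sctr values was not tested. The log2 fold change between LT and sham was -0.89 ± 0.29 and did not pass (adjusted p = 0.106). Single libraries varied widely, from 1.91 to 60.4 CPM at LT day 3 and from 35.6 to 175 CPM at raised-flow day 7. The 1.91 CPM rests on 1 Sctr UMI in the 42 cells of library 3.

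Cftr stood at 53.4, 48.8 and 36.2 CPM in sham, 27.4, 38.1 and 64.9 in LT and 33.6, 55.1 and 81.6 in the raised-flow group. In both transplanted groups day 1 was the lowest and day 7 the highest, and each day has 1 sample, so a course over days was not tested. Within cluster 2, described below, day 1 was instead the highest in both groups. Over all BEC-like cells the groups overlapped, with log2 fold changes against sham of 0.14 ± 0.31 in LT (adjusted p = 0.828) and 0.47 ± 0.31 in the raised-flow group (adjusted p = 0.509). Ano1, the other chloride channel, stood at 37.8, 35.2 and 31.4 CPM in sham, 28.3, 60.6 and 46.6 in LT and 29.5, 25 and 48.9 in the raised-flow group. Its groups overlapped as well, and its log2 fold change between LT and sham was 0.60 ± 0.25 (adjusted p = 0.194).

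Slc4a2, the anion exchanger, stood at 59.3, 72.0 and 80.8 CPM in sham, 35.5, 42.0 and 52.6 in LT and 54.2, 52.6 and 69.8 in the raised-flow group. LT lay below sham without overlap, with a log2 fold change of -0.49 ± 0.18 that did not pass (adjusted p = 0.149). Slc4a4, the sodium bicarbonate cotransporter, stood at 84.4, 78.1 and 76.6 CPM in sham, 30.3, 64.0 and 71.3 in LT and 52.4, 53.0 and 68.5 in the raised-flow group. All 6 transplanted samples lay below the sham samples, LT day 1 by the most. The log2 fold changes against sham were -0.32 ± 0.23 in LT (adjusted p = 0.422) and -0.28 ± 0.22 in the raised-flow group (adjusted p = 0.576).

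Slc12a2, the chloride loader, stood at 233, 147 and 146 CPM in sham, 223, 240 and 231 in LT and 227, 371 and 263 in the raised-flow group. Sham 1 lay among the transplanted samples and the other sham samples lay below them. The log2 fold changes against sham were 0.67 ± 0.23 in LT (adjusted p = 0.128) and 0.93 ± 0.23 in the raised-flow group (adjusted p = 0.151), and DESeq2 called the latter (adjusted p = 0.0127). Fitted within clusters 2 and 12, described below, the latter was -0.20 ± 0.51 and 0.12 ± 0.27. Car2, the carbonic anhydrase, stood at 115, 109 and 101 CPM in sham, 33.0, 54.5 and 157 in LT and 73.0, 104 and 153 in the raised-flow group. The LT samples at days 1 and 3 lay below sham and the day 7 samples of both transplanted groups above it. Its log2 fold change between LT and sham was -0.22 ± 0.44 (adjusted p = 0.80), and LT day 7 libraries ran from 8.28 to 211 CPM.

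**Figure D2:**
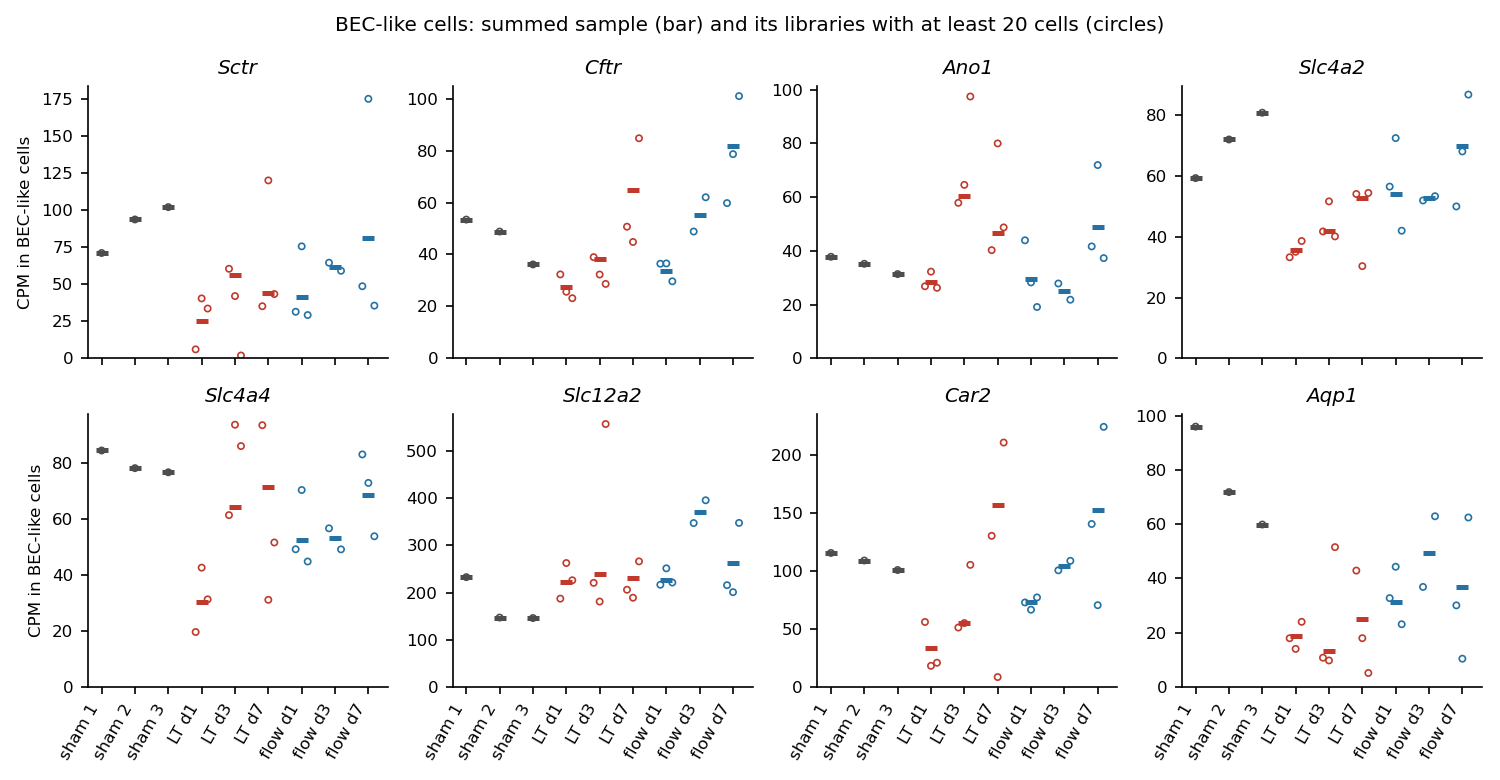
CPM of each gene in BEC-like cells (y axis, from 0) in the 9 samples (x axis; LT and flow d1, d3 and d7 are days 1, 3 and 7 of the LT and raised-flow groups); bars are summed samples and circles are libraries with at least 20 BEC-like cells. Aqp1 is above 59 CPM in all sham samples and at or near 25 CPM or lower in the LT samples, while libraries of 1 sample are spread widely for Aqp1, Sctr and Car2.

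On CPM, 4 of the 8 genes did not overlap between LT and sham, all lower in LT (Slc4a2, Slc4a4, Sctr and Aqp1), against 32.4% of all genes. Between the raised-flow group and sham, 2 did not overlap (Slc4a4 and Aqp1), against 23.9%, and between the raised-flow and LT groups 1, Aqp1, against 13.0%. These counts depended on scaling. After the trimmed mean of M-values (TMM) scaling used in the test, Sctr and Aqp1 stayed lower in LT than in sham, Slc4a2 and Slc4a4 overlapped, and Ano1 and Slc12a2 lay higher, against 28.3% of all genes. Slc12a2 also lay higher in the raised-flow group than in sham, which made 3 of 8 against 21.6%, and Slc4a2 higher in the raised-flow than in the LT group, which made 2 of 8 against 13.5%. Scaling to library size moved the median log2 fold change of all genes to -0.25 in LT and -0.16 in the raised-flow group, against -0.01 and 0.01 with TMM. The share of called genes that were higher in LT was 44.1% with TMM and 20.8% with library size.

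**Figure D3:**
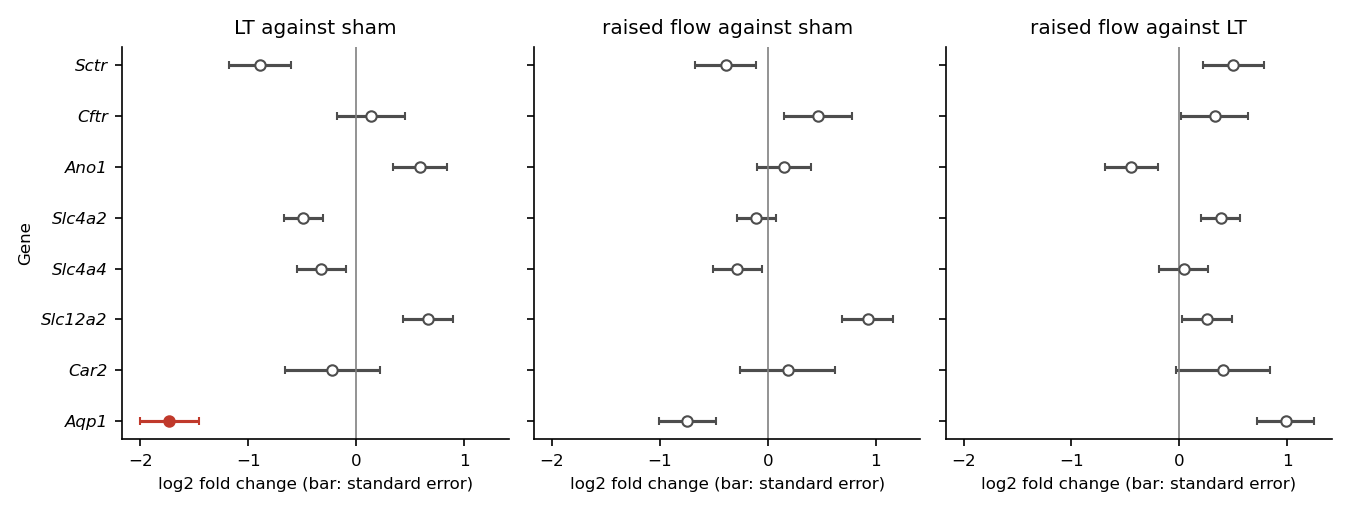
Log2 fold change of each gene in BEC-like cells from edgeR (x axis; bars are the standard error) for 3 comparisons of 3 samples against 3; the filled red point passed an adjusted p under 0.05. Aqp1 between LT and sham, at -1.73, is the filled point.

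The BEC-like cells were not uniform, and their 4 clusters, which were formed without the 8 genes, carried different amounts of each. Cluster 2 was led by Gkn3, Agr2, Aqp5 and Gast, cluster 12 by Wfdc21, Lypd8, the oxidase gene Duox2 and its maturation factor gene Duoxa2, cluster 16 by the antimicrobial lectin genes Reg3b and Reg3g with the mitotic gene Cdc20, and cluster 18 by Scgb1c1, Akr1c15 and Ttr. Values follow over samples with at least 20 cells of the cluster, as a description with no test.

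Cluster 12 held less of most secretion genes than cluster 2. In 9 of 9 samples it had less Cftr, Slc4a2, Slc4a4, Aqp1, Car2 and Slc12a2 than cluster 2, with median ratios of 0.358, 0.633, 0.423, 0.0578, 0.288 and 0.437. Ano1 went the other way, higher in cluster 12 in 9 of 9 samples, with a median ratio of 2.06. The matching shares of all genes were not taken, so whether these counts are particular to secretion genes was not tested. Sctr averaged 10.3 ± 13.3 CPM in cluster 12 (SD, n = 9), 85.1 ± 30.02 in cluster 2 (n = 9), 52.0 ± 28.2 in cluster 16 (n = 8) and 131 ± 72.2 in cluster 18 (n = 8). Sctr was lower in cluster 12 than in cluster 2 in all but 1 sample. Against cluster 16, cluster 12 was not lower for Cftr, at 32.2 against 28.3 CPM, and Slc12a2 stood at 156 and 157 CPM. The cluster with the most of the chloride channel gene Ano1 was thus the one with the least of the secretin receptor and water channel genes.

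Cluster 2 held the most Slc12a2, 499 ± 209.6 CPM against 148 to 157 in the other clusters. It was also the highest cluster for Cftr, at 89.2 ± 25.9 CPM, Car2, at 165 ± 72.6, and Aqp1, at 72.5 ± 49.3. Slc4a4 had its highest mean in cluster 18, at 103 ± 27.8 CPM, followed by cluster 2 at 80.5 ± 15.4. Both means lay above the 37.8 and 38.9 CPM of clusters 12 and 16. Cluster 18 exceeded cluster 2 for Slc4a4 in 5 of 8 samples. In sham 1, 2 and 3 it was instead lower, at 94.3, 84.7 and 81.5 CPM against 105, 91.2 and 83.5 in cluster 2. Slc4a2 differed the least between clusters, from 43.6 to 69.0 CPM.

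The make-up of the BEC-like cells differed between groups. Of BEC-like cells, cluster 18 took 20.2% to 80.7% in the sham group, 0.355% to 3.49% in LT and 0.705% to 5.72% in the raised-flow group. Cluster 2 held 3.07% to 23.6% in sham, 10.4% to 88.8% in LT and 21.8% to 93.7% in the raised-flow group. Cluster 16 held 0.680% to 4.15% in sham and 3.37% to 48.4% in LT. Genes that define these clusters may themselves have differed between groups, and libraries were clustered without correction between them, so these shares were not tested. A gene's level in all BEC-like cells holds both the level within clusters and their shares.

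Within each cluster Aqp1 was lower in LT than in sham. In cluster 2 it stood at 88.2 to 175 CPM in sham and 27.7 to 58.5 in LT, and in cluster 12 at 6.54 to 13.6 and 1.13 to 2.05. In cluster 16 it stood at 51.1 and 101 CPM in the 2 sham samples with enough cells and 11.8 to 21.3 in LT, and in cluster 18 at 65.0 to 140 CPM in sham and 3.13 and 35.3 in 2 LT samples, which rest on 1 and 9 Aqp1 UMIs in 24 and 29 cells. The ranges of LT and sham did not overlap in these clusters, where 21.6%, 25.6%, 48.6% and 36.6% of all genes did not. The cluster 12 values in LT rest on 28, 4 and 2 Aqp1 UMIs. Fitted within 1 cluster, the log2 fold change was -1.49 ± 0.40 in cluster 2 (adjusted p = 0.119) and -2.47 ± 0.51 in cluster 12 (adjusted p = 0.0610), and neither passed. Without cluster 18 it was -1.22 over the other BEC-like cells (adjusted p = 0.0966).

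For Sctr the direction turned with the cells that were summed. Its log2 fold change between LT and sham was -0.89 in all BEC-like cells and 0.08 without cluster 18. Cluster 18 had the highest mean Sctr, above cluster 2 in 5 of 8 samples. In cluster 12 the log2 fold change was 1.8 ± 0.98 (adjusted p = 0.370), and in cluster 2 -0.35 ± 0.37 (adjusted p = 0.672). Sctr in cluster 12 stood at 1.76, 9.84 and 45.2 CPM in LT at days 1, 3 and 7. In sham it stood there at 4.01, 5.31 and 7.84 CPM, on 5, 9 and 12 UMIs. LT day 1 thus lay below every sham sample in cluster 12. Slc4a4 also went from -0.32 to 0.06 without cluster 18. Cftr in cluster 2 stood at 98.4 to 128 CPM in sham and 54.0 to 89.1 in LT, and its log2 fold change there was -0.46 ± 0.29 (adjusted p = 0.442). In cluster 12 Cftr stood at 17.7 to 35.3 CPM in sham and 28.8 to 58.8 in LT, with a log2 fold change of 0.92 ± 0.35 (adjusted p = 0.218). Slc12a2 in cluster 2 averaged 576 CPM in sham, 500 in LT and 420 in the raised-flow group. Its log2 fold changes against sham there were 0.08 ± 0.51 in LT and -0.20 ± 0.51 in the raised-flow group. In cluster 12 they were 0.34 ± 0.26 and 0.12 ± 0.27, and none passed.

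**Figure D4:**
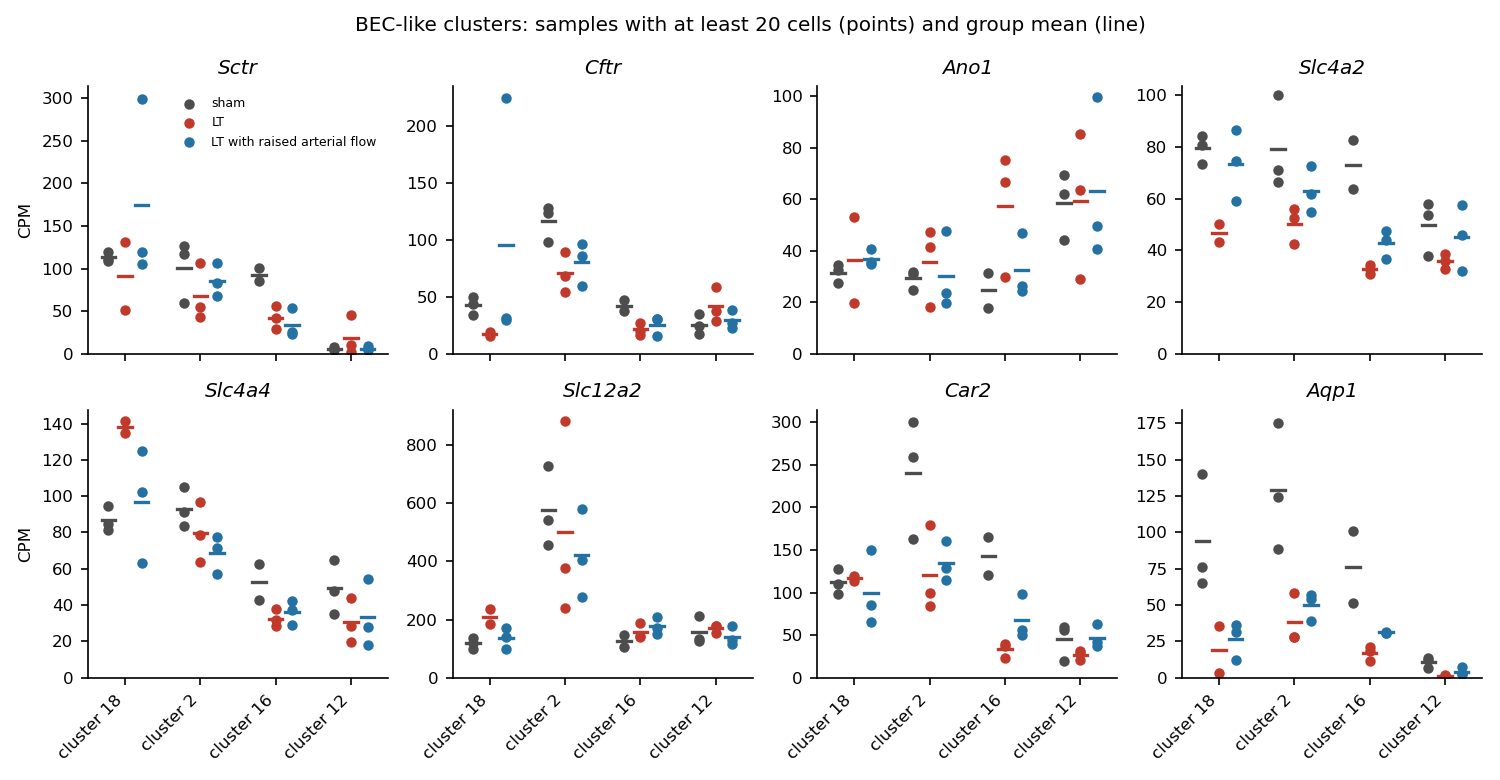
CPM of each gene (y axis, from 0) in the 4 BEC-like clusters (x axis); points are samples with at least 20 cells of the cluster, coloured by group, and short lines are group means. Sctr and Aqp1 are lowest in cluster 12 and Slc12a2 is highest in cluster 2; the high raised-flow points of Sctr and Cftr in cluster 18 come from the 31 such cells of raised-flow day 7.

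In 6 other classes, tuft-like epithelial cells among them, no tested gene of the 8 passed. Cftr was too low to be tested in any of them, Sctr was tested in macrophage-like cells alone, and a class had 3 to 6 genes tested. In these classes, which had enough cells in every sample, 75 tests of 7 genes gave 14 with an unadjusted p under 0.05, where 12.8% of all genes were. The smallest adjusted p was 0.109, and 0.767% of all genes passed. Aqp1 in EC-like cells stood at 1152, 769.6 and 979 CPM in sham, 647, 518 and 497 in LT and 1276, 502 and 918 in the raised-flow group. Its LT samples lay below every sham sample and the raised-flow samples overlapped both groups. In EC-like cells LT did not overlap sham for 2 of 3 genes tested, Aqp1 and Slc4a2, both lower, against 23.7% of all genes. In macrophage-like cells Aqp1 alone of 5 did not overlap sham, lower in LT and the raised-flow group, against 30% and 25.3% of all genes. Aqp1 there rested on 4 to 29 UMIs per sample. Its mean in macrophage-like cells, 1.56 CPM, was below its median of 37.4 CPM in empty droplets. In NK&T-like cells Slc12a2 alone of 3 did not overlap, lower in LT, against 22.6%. DESeq2 called 1 of these tests, Ano1 in fibroblast-like cells. The fibroblast-like cells lay in different clusters by group, cluster 9 with 99% of its cells from sham, cluster 8 with 1.05% and cluster 6 with 51.1%. Pooled over samples, clusters 9, 8 and 6 held Ano1 at 18.2, 2.01 and 1.62 CPM and Slc4a4 at 10.5, 5.47 and 14.4 CPM. The clusters of macrophage-like and NK&T-like cells also differed by group, with 0.546% to 95.2% and 0.171% to 85.5% of a cluster's cells from sham. The part of these clusters in the class values was not tested. In fibroblast-like cells LT lay below sham without overlap for 3 of 6 genes tested, Slc4a2, Slc4a4 and Slc12a2, where 30.1% of all genes did not overlap. In tuft-like cells LT did not overlap sham for 2 of 4, Slc4a2, which was lower, and Slc4a4, which was higher, against 19.4% of all genes. The raised-flow group did not overlap sham there for Slc4a4 alone, which was higher, against 14.2%.

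The neighbouring genes of secretion were taken as a list of 116 receptors, cAMP signaling genes, ion transporters, carbonic anhydrases, aquaporins and related genes, of which 115 were in the matrices and 83 were tested in BEC-like cells. Between LT and sham 5 were higher and 1 lower, with 18 of 83 at an unadjusted p under 0.05 and a median log2 fold change of 0.03, against 276 higher and 350 lower and a median of -0.01 over all genes. Between the raised-flow group and sham 1 was higher and none lower, with 15 of 83 at an unadjusted p under 0.05 and a median of 0.05, against 21 higher and 18 lower and a median of 0.01 over all genes. Between the raised-flow and LT groups none passed, with 10 of 83 at an unadjusted p under 0.05 and a median of -0.01 against 0.04. The unadjusted shares of all genes were the 23.4%, 13.9% and 8.92% given above.

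Adcy8, an adenylyl cyclase that makes cAMP, passed against sham in both transplanted groups. It stood at 10.1, 8.22 and 8.55 CPM in sham, 19.7, 40.1 and 39.6 in LT and 19.4, 28.2 and 32.1 in the raised-flow group. The log2 fold changes were 2.11 ± 0.24 (adjusted p = 0.00683) and 1.75 ± 0.24 (adjusted p = 0.0288). Every transplanted sample lay above every sham sample. By cluster and pooled over samples, Adcy8 stood at 6.91 CPM in cluster 18 and at 28.7, 45.6 and 12.6 in clusters 2, 12 and 16. Sham gave 91.4% of the cells of cluster 18 and 2.57%, 20.2% and 3.91% of those of clusters 2, 12 and 16. Cluster and group cannot be told apart in these pooled values. Slc4a7, a sodium bicarbonate cotransporter, had a log2 fold change of 1.23 ± 0.25 in LT (adjusted p = 0.0303) and stood at 93.0 CPM in tuft-like cells against at most 22.6 in the BEC-like clusters. Clca4, of a family linked to calcium-activated chloride conductance, had 0.87 ± 0.18 (adjusted p = 0.0342) and the potassium channel gene Kcnk1 0.71 ± 0.15 (adjusted p = 0.0377).

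The remaining calls rested on few UMIs. Ca4, a membrane carbonic anhydrase, had 2, 2 and 7 UMIs in sham and 201, 30 and 24 in LT, with a log2 fold change of 3.35 ± 0.76 (adjusted p = 0.0406). In the raised-flow group it had 39, 11 and 12 UMIs. It stood at 3.74, 3.57 and 1.11 CPM in LT and 0.992, 0.459 and 0.392 CPM in the raised-flow group. Ca4 stood at 575 CPM in neutrophil-like cells, and the 6 neutrophil markers in BEC-like cells summed to 2.0 to 10.6 CPM in sham. At days 1, 3 and 7 these markers summed to 233, 397 and 336 CPM in LT and 294, 62.6 and 310 in the raised-flow group. Their part in the Ca4 result was not tested. Adcy5, another adenylyl cyclase, had 2, 16 and 16 UMIs in sham and 7, 1 and 2 in LT, with a log2 fold change of -2.69 ± 0.51 (adjusted p = 0.0236), and stood at 23.9 CPM in tuft-like cells. The calls from the list depended on which BEC-like cells were summed. Without cluster 18, none of these 7 calls, Adcy8 included, was past the threshold, and 2 other list genes were, the water channel gene Aqp3 and the sodium channel gene Scnn1a.

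**Figure D5:**
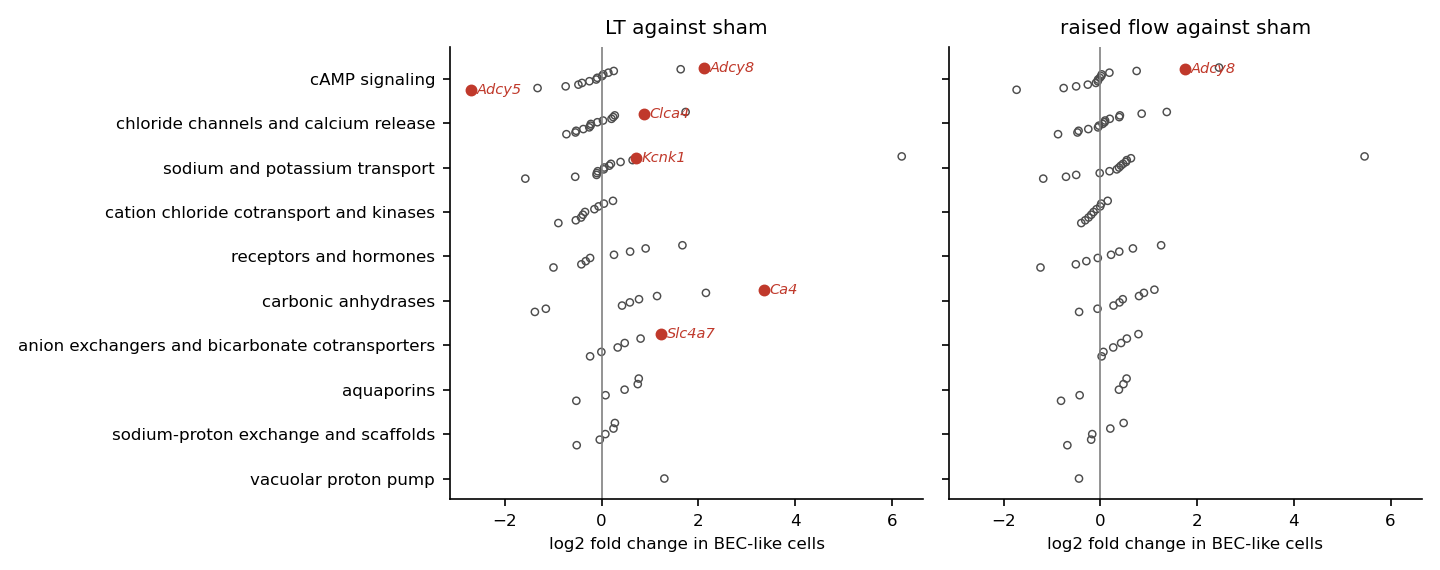
Log2 fold change (x axis) of the 83 tested neighbouring genes in BEC-like cells by subgroup (rows), for LT against sham and the raised-flow group against sham; open points did not pass and filled, named points passed an adjusted p under 0.05. Adcy8 is named in both panels.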

How the data were processed

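The authors deposited, per library, raw UMI counts per gene and barcode from 10x droplets. The labels name Cell Ranger 5.0.1 and Seurat 3.2.0, and the genome build is not given in the sources used here. From these counts, a barcode was kept if its gene number lay between 400 and 6000, mitochondrial UMIs stayed below 25% and hemoglobin UMIs below 3%. Of these 150284, 10699 were left out as doublets, above percentile 92.5 of a neighbour score; on simulated data that score marked 54% of pairs. Cells were clustered (30 components of 2000 variable genes, Leiden resolution 0.9) without the 8 genes and the 116 listed genes. No correction between libraries was made before clustering, so clusters may hold differences between libraries. Clusters were named from markers; the naming rule was adjusted after leading genes were seen and before any test. The members and lists were chosen with earlier results of these data known.

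Counts were summed per sample and class with at least 20 cells and tested with edgeR 4.0.16 (R 4.3.3; filterByExpr, TMM, quasi-likelihood, 9 samples in 1 fit, Benjamini-Hochberg over all genes tested), without covariates. DESeq2 1.42.0 was an alternative. P-values weigh a group difference against the spread between samples within groups. In the transplanted groups that spread holds day as well as animal. On data simulated for LT against sham in BEC-like cells (13070 genes), 2%, 14%, 62% and 62% of genes changed 1.5-, 2-, 3- and 4-fold were called, with 6 false of 76 calls, so small changes were seldom called. Totals per sample set the precision, and intervals were not given for summed counts. The genes named were the 8 members, the list genes past the threshold, the 3 genes most alike per member (at least 20 CPM in a class; some are not reported here) and the leading genes of clusters. Alternatives changed the test, scaling, filter, samples, libraries, doublets, hemoglobin limit, free RNA, UMI minimum, resolution and BEC-like clusters. LT and raised-flow samples share days in the labels; deviations of same-day samples had correlations of 0.62, -0.02 and 0.69. Library 1 of raised-flow day 3 was not analysed here.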

Additional observations from a re-analysis of the deposited data

Results flagged for a closer look

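Slc4a4, the sodium bicarbonate cotransporter, lay on opposite sides of sham in different classes. In tuft-like cells every LT and every raised-flow sample lay above every sham sample, with log2 fold changes of 1.25 and 0.64, in a class where 19.4% and 14.2% of all genes did not overlap. In BEC-like cells every sample of both groups lay below sham, with log2 fold changes of -0.32 and -0.28, and in fibroblast-like cells every LT sample lay below sham, with -0.47. The difference between classes was not tested, and none of these fold changes passed on its own. In BEC-like cells LT overlapped sham after TMM scaling, and the log2 fold change was 0.057 without cluster 18. The fibroblast-like cells lay in different clusters by group. Slc4a4 stood at 10.5 CPM in cluster 9 (99% sham), 5.47 CPM in cluster 8 (1.05% sham) and 14.4 CPM in cluster 6 (51.1% sham). The tuft-like values rest on 3 to 20 Slc4a4 UMIs per sample. At LT day 3, the tuft-like sample with the most Slc4a4, Cftr and Ano1 had a UMI in 5.32% and 4.26% of cells, and at LT day 7 in 1.09% and 3.26%, against 0% to 0.259% and 0.301% to 0.647% in sham. At LT day 1 and raised-flow days 1 and 3 these shares were at most 0.234% and 0%. At raised-flow day 7 they were 0.938% and 1.13%. These shares are not adjusted for depth; thinned to 2000 UMIs they were 2.36% and 1.55% at LT day 3 and 1.24% and 3.64% at LT day 7, against 0% and up to 1.32% in sham. Thinned Sctr shares were 0.379% to 2.14% in sham, 1.31% to 1.63% in LT and 0% to 2.46% in the raised-flow group. The 12 BEC markers in tuft-like cells summed to 34946 to 44049 CPM in sham. They summed to 29958 to 37793 CPM in LT and 36366 to 41503 in the raised-flow group. Krt8 and Krt18, which are among these markers, also lead the tuft-like cluster, so the sums cannot show how much RNA came from BEC-like cells. The part of RNA from BEC-like cells in the Slc4a4 values was not tested.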

How the results depend on the processing

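Aqp1 between LT and sham stayed past the threshold in 18 of 23 alternatives and kept its direction in all 23. The count of the 8 genes called there, 1, was 0 without cluster 18, in cluster 12 only and in cluster 2 only, and 0 to 1 over the fits without 1 sample each. Between the raised-flow group and sham DESeq2 called 1, Slc12a2. Calls from the neighbouring list, 7 over the 3 comparisons, were 13 with DESeq2, 3 with library size, 4 with each library as a sample, 2 without cluster 18, 0 in cluster 12, 1 in cluster 2 and 1 to 8 without 1 sample each. Calls in other classes, 0, were 1 with DESeq2, 2 with no filter (Sctr in NK&T-like and Ano1 in VSMC-like cells) and 0 to 1 without 1 sample each. The day as replicate block between the raised-flow and LT groups left 0 of the 8 genes called and changed no other call. The single-cluster fits and the one without LT day 3 libraries 2 and 3 were chosen after seeing the data.

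Log2 fold changes of the 8 genes that turned sign were uncalled in the main fit, and the cause was not tested. DESeq2 did call Slc12a2 between the raised-flow group and sham. Between LT and sham, Cftr was -0.081 with library size and -0.46 in cluster 2. Without cluster 18, Slc4a4 was 0.057 and Sctr 0.079. In cluster 12 Sctr was 1.8. Between the raised-flow group and sham, without cluster 18, Slc4a2 was 0.14, Slc4a4 0.077, Sctr 0.55 and Ano1 -0.22. Ano1 was -0.0089 with library size. In cluster 12 Slc4a2 was 0.043 and Sctr 0.36. In cluster 2 Cftr was -0.30, Sctr 0.014, Car2 -0.61 and Slc12a2 -0.20. Between the raised-flow and LT groups, in cluster 12, Cftr was -0.52, Sctr -1.44, Ano1 0.10 and Slc12a2 -0.23. In cluster 2 Slc4a4 was -0.19 and Slc12a2 -0.29. Leaving out 1 sample each, Cftr ran from -0.20 to 0.34 and Car2 from -1.03 to 0.13 between LT and sham. Between the raised-flow group and sham Slc4a2 ran from -0.25 to 0.034, Ano1 from -0.083 to 0.31 and Car2 from -0.025 to 0.38. Between the raised-flow and LT groups Slc4a4 ran from -0.22 to 0.20 and Slc12a2 from -0.013 to 0.38.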

Other observations

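Cluster 17 carried epithelial genes (Lcn2, Gpx2 and Agr2) but fewer than 3 detected BEC markers, and it stayed unnamed. It held 0.189% to 2.24% of retained cells in sham, 0.300% to 4.16% in LT and 1.13% to 8.37% in the raised-flow group. At raised-flow day 1, where it was largest, it had 1888 cells beside 2516 BEC-like cells. In sham 3, where it was smallest, it had 21 beside 1857. Cluster 17 was not part of the BEC-like sums. Summed over all samples, it held Slc12a2 at 93.6 CPM, Car2 at 77.6, Sctr at 33.9, Aqp1 at 28.8, Slc4a2 at 18.6, Cftr and Slc4a4 at 9.30 each and Ano1 at 5.73.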
